A study of Drosophila melanogaster with 3 samples.

Results

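The 8 Hox genes of Drosophila melanogaster, lab, pb, Dfd, Scr, Antp, Ubx, abd-A and Abd-B, were examined in a map of the places where the protein of the gene CG13775 was found on embryonic chromatin. They are 8 of 18164 annotated genes on the 6 main chromosome arms, were taken by symbol from the Ensembl annotation, and all lie on chromosome arm 3R. Each called region was assigned to them by its summit, the position of its peak, if this lay within 500 bp of a transcript start, inside a gene, or in the DNA between neighbouring listed genes of the same complex. By this rule 32 of the 5862 regions of the final list and 188 of the 30000 regions of the relaxed list belonged to them. The rule itself uses gene symbols and positions, with no signal value.

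The study used chromatin immunoprecipitation followed by sequencing (ChIP-seq) on a fly line that stably carries CG13775 fused at its C-terminal end to green fluorescent protein (GFP), precipitated with an antibody against GFP. Embryos of both sexes were pooled over 0 to 24 hours of development and taken whole, and the chromatin was sonicated to fragments between 200 and 800 bp. There is 1 group, with 3 libraries labelled as biological replicates 1, 2 and 4. No library of an untagged line or of input chromatin was analysed here, so regions that any GFP precipitation of such embryos would give cannot be told apart from sites of the tagged protein, and a region present in a few tissues or stages is averaged with all others.

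Hox genes encode homeodomain transcription factors that give the segments along the head-to-tail axis their identity. In the fly they lie in a pair of clusters on chromosome 3: the Antennapedia complex holds lab, pb, Dfd, Scr and Antp, which act in the head and the anterior thorax, and the bithorax complex holds Ubx, abd-A and Abd-B, which act in the posterior thorax and the abdomen. Their expression is set by enhancers spread over long introns and over the DNA between the genes, and is kept on or off through development by trithorax and Polycomb group proteins, which act through response elements that often hold sites for GAGA factor and Pho.

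The final list, called the optimal list, is the set of regions that passed the irreproducible discovery rate (IDR) procedure on the pooled libraries. The pooled list and the 3 replicate lists are relaxed lists of 30000 regions each, which include background on purpose. Each region carries a signal value from the authors' peak caller, whose scale is not given in the sources used here. Signal is therefore compared only within a list, as a rank (1 is the highest) or as a percentile (100 is the highest). Replicate lists were also restricted to their 5862 regions of highest signal, the size of the optimal list. The files hold no read counts, so depth is unknown.

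The sequences of 10 regions are shown because the results turn on them: the strongest region of each of several Hox genes and intervals, both regions at Hox starts, and the 3 regions with the word AGGNGGC. Each line gives 101 bases centred on the summit, from the Release 6 genome of RefSeq, in the dm6 coordinates of the lists. Capitals mark any copy, on either strand, of the words GAGAG (bound by GAGA factor), GCCAT (the core bound by Pho), CGATA (bound by BEAF-32), AGGNGGC (the core bound by fly CTCF), CAGGTAG (bound by Zelda) and TAATTA (a core bound by homeodomain proteins). A word on the minus strand appears as its reverse complement.
Abd-B, intron, chr3R:16958255-16958355, plus strand: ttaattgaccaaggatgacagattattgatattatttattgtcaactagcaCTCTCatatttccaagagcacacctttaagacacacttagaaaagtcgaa
Between Ubx and abd-A, chr3R:16798830-16798930, plus strand: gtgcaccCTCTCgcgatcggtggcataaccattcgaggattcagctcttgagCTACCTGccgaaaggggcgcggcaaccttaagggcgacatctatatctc
Antp, intron, stronger region of a pair, chr3R:6912512-6912612, plus strand: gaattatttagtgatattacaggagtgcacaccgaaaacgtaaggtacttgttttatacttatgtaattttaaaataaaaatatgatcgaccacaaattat
Antp, intron, weaker region of a pair, chr3R:6912720-6912820, plus strand: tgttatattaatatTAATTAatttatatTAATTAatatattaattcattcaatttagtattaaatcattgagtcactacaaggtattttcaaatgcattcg
Dfd, start, chr3R:6791408-6791508, plus strand: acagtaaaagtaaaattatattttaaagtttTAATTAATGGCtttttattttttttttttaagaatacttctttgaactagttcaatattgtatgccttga
Antp, start, chr3R:6933123-6933223, plus strand: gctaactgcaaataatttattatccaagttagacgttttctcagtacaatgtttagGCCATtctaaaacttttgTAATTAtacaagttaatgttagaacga
abd-A, coding exon, chr3R:16827244-16827344, plus strand: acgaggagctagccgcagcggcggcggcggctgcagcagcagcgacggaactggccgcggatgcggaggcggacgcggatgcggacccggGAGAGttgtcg
Between pb and Dfd, at the start of bcd, chr3R:6759585-6759685, plus strand: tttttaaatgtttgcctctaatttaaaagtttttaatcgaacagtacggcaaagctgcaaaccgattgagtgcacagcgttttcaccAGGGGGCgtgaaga
Between abd-A and Abd-B, nearer abd-A, chr3R:16869347-16869447, plus strand: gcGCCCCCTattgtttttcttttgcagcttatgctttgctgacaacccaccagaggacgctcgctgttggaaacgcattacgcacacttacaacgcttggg
Between abd-A and Abd-B, nearer Abd-B, chr3R:16919213-16919313, plus strand: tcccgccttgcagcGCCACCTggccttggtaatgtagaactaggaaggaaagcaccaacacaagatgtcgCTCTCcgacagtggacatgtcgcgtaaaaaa

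Most optimal summits of the Hox complexes lay in introns and between the listed genes, and few lay at Hox starts. These counts are not set against the bases of each class. DNA within 500 bp of a start of any gene makes up only 10.9% of the complexes. Of the 32 optimal summits, 2 lay within 500 bp of a Hox start, 14 in Hox introns, 1 in a Hox coding exon and 15 between the listed genes. The restricted replicate lists held 32, 29 and 33 summits in the same DNA in replicates 1, 2 and 4 (31.3 ± 2.08, SD, n = 3). Of these, 13.7 ± 2.31 lay in Hox introns, 15 in every replicate lay between the genes, and 1.67 ± 0.577 lay at a Hox start. The Antennapedia complex, 337.8 kb from lab to Antp, held 17 optimal summits. The bithorax complex, 315.6 kb from Ubx to Abd-B, held 15. Their densities of 5.03 and 4.75 summits per 100 kb were close, and the restricted lists gave 17 ± 1 and 14.3 ± 2.08 summits (SD, n = 3), ranges that overlap. No test was made of the difference between the complexes.

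**Figure D1:**
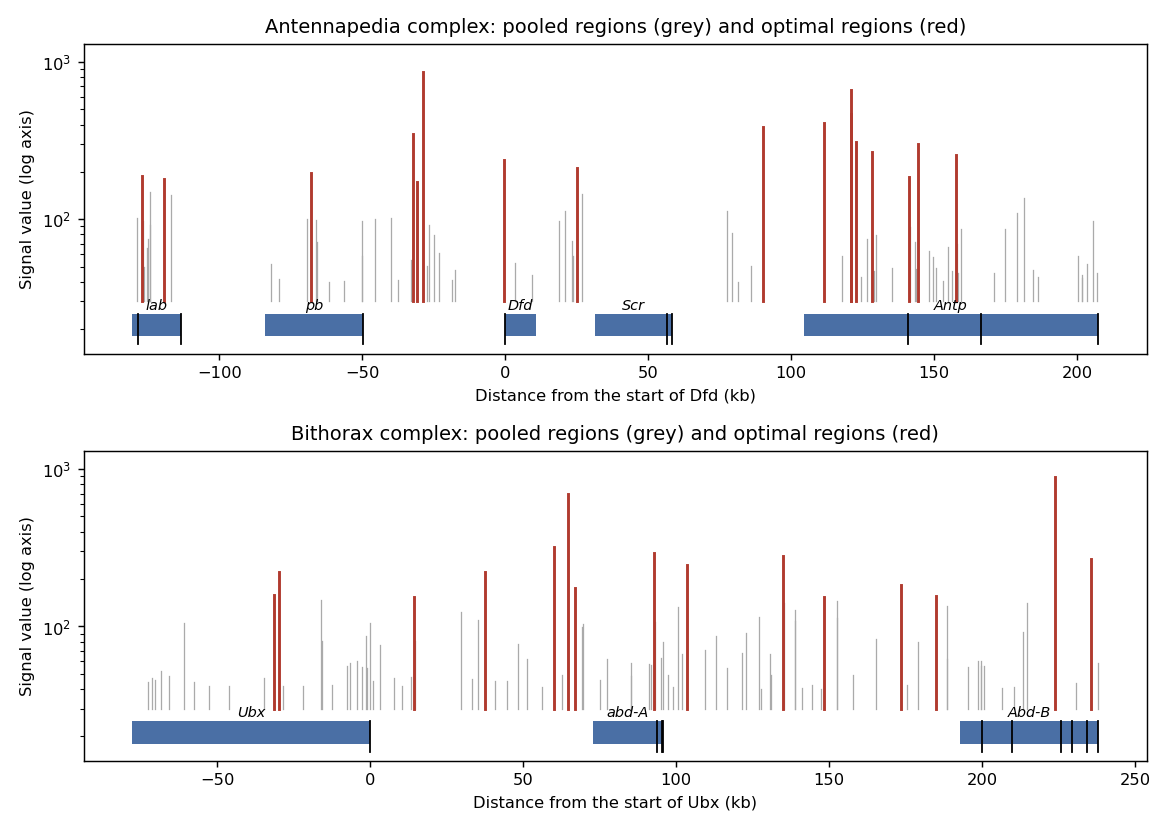
Signal of every pooled region (grey) and optimal region (red) along the Antennapedia complex, upper panel, and the bithorax complex, lower panel, against distance in kb from the start of Dfd or of Ubx. Signal is on a log axis, blue boxes are the 8 genes and black ticks their transcript starts. The tallest lines, at signals of 886.5 in Abd-B and 858 between pb and Dfd, stand away from Hox starts, and Scr holds no line.

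Signals of the Hox regions were ordinary for the list. They ran from 153.1 to 886.5 with a median of 250.7, against a median of 267.5 over all optimal regions, and 14 of the 32 were above that median. The best Hox region ranked 379 in the pooled list, 2 were among the 500 highest and 4 among the 1000 highest. Of the 188 pooled Hox regions, 17.0% were in the optimal list, whereas 19.5% of all pooled regions were. By class this share was 15.4% of 13 at Hox starts, 16.9% of 83 in Hox introns and 18.8% of 80 between the genes. In the single libraries, 20 of the 32 overlapped a region of the restricted list in every replicate, against 73.3% of all optimal regions. Restricted lists held 28 of the 32 in replicate 1, 23 in replicate 2 and 30 in replicate 4. In the full relaxed lists, 95 of the 96 possible partners were found, with a median shift of the summit of 20 bp.

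**Figure D2:**
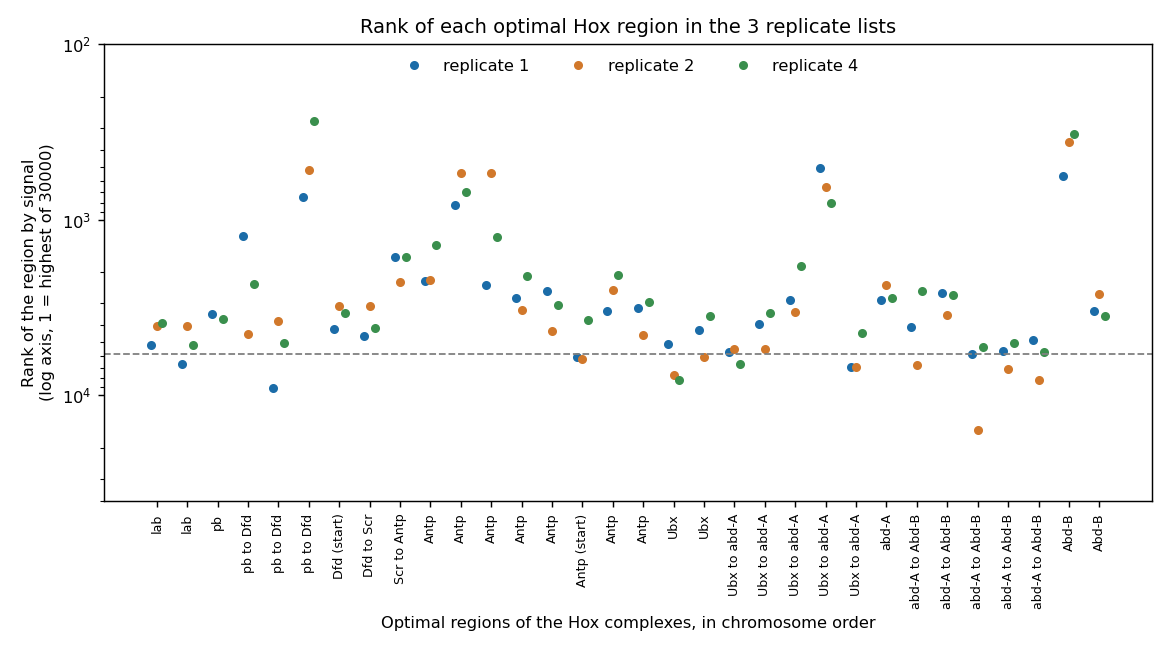
Rank by signal, on a log axis with the highest at the top, of the region of each replicate list that overlaps each of the 32 optimal Hox regions, in chromosome order. The dashed line is rank 5862, the size of the optimal list, and points of replicate 2 fall below it most often. The point far below the others is replicate 2 at rank 15690, between abd-A and Abd-B.

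At the starts themselves, Dfd and Antp stood alone in the optimal list. Thus 2 of 8 Hox genes had an optimal summit there, at most 500 bp from a start, beside 26.2% of all protein-coding genes and 35.3% of the 1977 protein-coding genes at least 10 kb long, a length that all 8 exceed. A count of 2 in 8 is near both shares and is no result about Hox genes as a group. The restricted lists gave 1 gene in replicate 1 (Dfd), 2 in replicate 2 (Dfd and Abd-B) and 2 in replicate 4 (Dfd and Antp). Dfd was the gene found in all of them.

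Dfd, which specifies the mandibular and maxillary segments of the head, had its optimal summit 378 bp upstream of its single start at position 6791836. The region ranked 4212, 3115 and 3392 in replicates 1, 2 and 4, with signals of 64.4, 54.3 and 117 in those lists, and 3425 in the pooled list. Ranks in the 3 libraries were close together and all inside the restricted lists. Antp, which acts in the thorax, has 3 starts, and its optimal summit lay 333 bp upstream of the one at 6932840. That region ranked 6091, 6238 and 3741 in replicates 1, 2 and 4, so it reached the restricted list of replicate 4 only. The start of Antp at 6958370 had no region in any list, and the distal one at 6999228 had a pooled region at rank 25024. Both start regions hold the words GCCAT and TAATTA, as the printed sequences show, and in the Dfd region the words abut.

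The other 6 genes had weaker start regions or ones that varied between libraries. Ubx, which gives the third thoracic and the first abdominal segment their identity, had a pooled region 25 bp downstream of its start, at rank 8817 and at ranks 12852, 21606 and 8460 in replicates 1, 2 and 4. For lab, which acts in the head and midgut, the best region at either start ranked 9293 in the pooled list and 7628, 17413 and 7563 in replicates 1, 2 and 4, where that of replicate 1 lay at the start at 6678590 and the others at 6663454. For pb, needed for the adult mouthparts, the start region ranked 9633 in the pooled list, and 28407, 24694 and 8870 in the replicates. These ranks spread over much of the relaxed lists. For abd-A, which patterns the anterior abdomen, a region near the starts at 16829752 and 16830049 ranked 12082 in the pooled list, 10237 and 12655 in replicates 1 and 4, and was missing in replicate 2. Abd-B, the most posterior Hox gene, has 6 starts, of which the one at 16934242 had the best pooled region at rank 17294, with rank 5502 in replicate 2 and 20812 in replicate 4, and none in replicate 1. Scr, which acts in the labial and the first thoracic segment, had no pooled region at either start. Its start at 6848505 had regions at ranks 20554 and 24720 in replicates 1 and 4. Over the 19 Hox starts, 2 had an optimal region, 11 a pooled one, 5 a region in the pooled and every replicate list, and 4 none in any list.

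Away from their starts, 6 of the 8 genes held an optimal summit: lab, pb, Antp, Ubx, abd-A and Abd-B. Among protein-coding genes of at least 10 kb, 39.3% held an optimal summit inside and over 500 bp from their own starts. That class is open at the top, Antp and Ubx are 103 and 77.8 kb long, and longer genes have more room for a summit. The restricted lists gave 6, 4 and 6 genes in replicates 1, 2 and 4, without pb and Ubx in replicate 2. Inside regions ranked above start regions for most of the genes. In 7 genes the best region inside had a higher percentile than the best region at a start in every replicate that had both, and in Dfd the start was higher in all 3. Of the 1607 protein-coding genes of at least 10 kb with both kinds of region in a replicate, 44.7% had the inside region higher in every replicate with both. Inside regions outnumber start regions in most Hox genes, and Antp had 36 against 2 in the pooled list, so the best of them is favoured by number. Whether this sets the count was not tested.

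**Figure D3:**
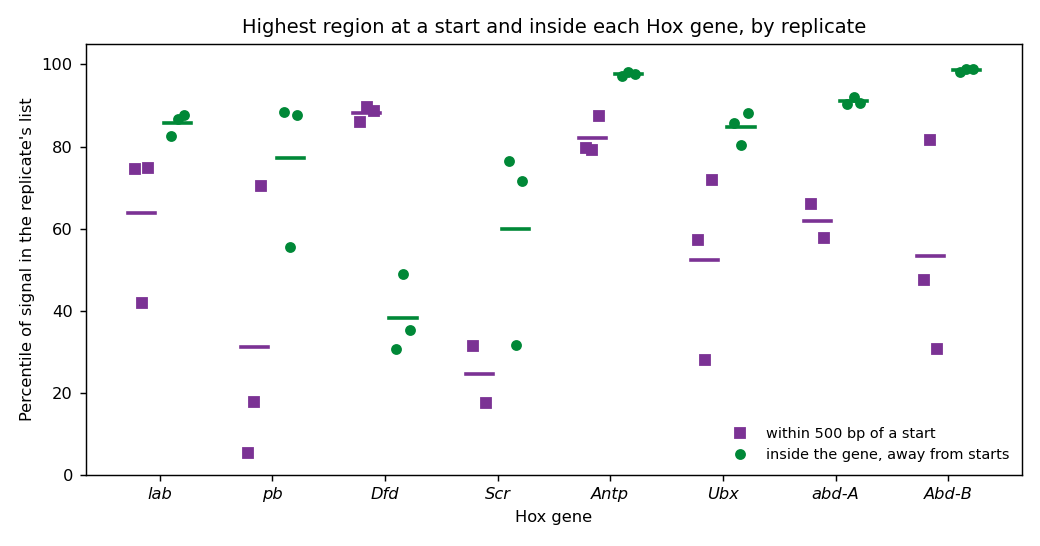
Percentile of signal in each replicate's own list (100 is the highest) for the best region within 500 bp of a start (purple squares) and the best region inside the gene away from starts (green circles), for each Hox gene. Points are replicates, missing where the list has no region, and bars are means. Each green bar lies above the purple bar of its gene except in Dfd, while in pb single points of the 2 kinds overlap.

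Abd-B and Antp held the highest inside regions. The percentile of the best inside region was 98.6 ± 0.423 for Abd-B and 97.7 ± 0.474 for Antp (SD, n = 3), and the replicate ranges of these 2 genes overlapped. Within each library Abd-B was the higher, at 98.13, 98.8 and 98.91 against 97.25, 98.2 and 97.69 in replicates 1, 2 and 4. Next was abd-A at 91.1 ± 0.919, below every replicate of Antp and above every replicate of lab, at 85.6 ± 2.65. Ubx at 84.8 ± 4.07 and pb at 77.3 ± 18.8 overlapped lab and each other. Scr at 59.95 ± 24.6 and Dfd at 38.3 ± 9.44 were lowest, also with overlapping ranges. The number of inside regions in the pooled list ran from 0 in Scr and 2 in Dfd to 23 in Ubx and 36 in Antp, so the order of the genes also compares unequal numbers.

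In Abd-B, the intronic summit at 16958305 was the strongest region of all Hox DNA. Its signal was 886.5 in the pooled list, where it ranked 379, and its ranks in replicates 1, 2 and 4 were 562, 361 and 327. It lay 1976 bp downstream of the start at 16960281, inside a region that spans positions 16958261 to 16958518, and its printed window holds a copy of GAGAG on the minus strand. A second Abd-B summit, at 16970060 in an intron 1486 bp upstream of the start at 16968574, had a signal of 267.5 and ranks of 3323, 2657 and 3549. Both were in the restricted list of every replicate.

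Antp, the longest of the listed genes at 103 kb, held 8 optimal summits, the most of any of them, at 7.77 per 100 kb. The densities of lab and Dfd, 11.65 and 9.44 per 100 kb, were higher but rest on 2 summits and 1. The strongest pair of Antp, at 6912562 and 6912770 in the intron downstream of the start at 6932840, had signals of 666.9 and 468.3. The first ranked 825, 541 and 693 in replicates 1, 2 and 4. The second ranked 2345, 541 and 1256, where the equal rank in replicate 2 comes from a single region of that list that overlaps both. The windows of the pair differ in the words they hold, with none in the first and TAATTA in the second. A further summit at 6903452, with signal 406.3, lay in an exon of lncRNA:CR43252 inside an Antp intron, and the other 4 inside summits had signals from 257 to 309.6. The inside summits of Antp also lie within the annotated gene CG46458, so position does not assign them to Antp alone.

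Among the other genes, abd-A held the one optimal summit in a Hox coding exon, at 16827294, 811 bp downstream of the start at 16828105. Its signal was 292.1 and its ranks of 2854, 2356 and 2810 were close in the 3 libraries. Its printed window has a GC content of 74.3%, where the median Hox window had 32.7%, and holds a copy of GAGAG. Ubx, the second longest gene, held only the summits at 16703047 and 16704412, in intron 31379 and 30014 bp downstream of its start. The stronger, at 16704412, had a signal of 223.3 and ranks of 4260, 6089 and 3535, and the other a signal of 158.4 and ranks of 5116, 7711 and 8153. Neither was in the restricted list of every replicate. In lab the intronic summits at 6664801 and 6672555 had signals of 188.9 and 179.4, and in pb the summit at 6723991 had a signal of 196.8, with ranks of 3438 and 3694 in replicates 1 and 4 and no overlapping region in replicate 2.

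Scr stood apart as a gene without regions in the pooled list. No pooled summit lay in its 26.9 kb or at its starts, as was the case for 9.51% of protein-coding genes of at least 10 kb, so 1 of 8 Hox genes is not far from that share. Replicates 1, 2 and 4 listed 3, 1 and 4 regions in Scr, the best at ranks 7058, 20490 and 8496, none of which reached a restricted list. The longest stretch of a Hox complex without an optimal summit, 65.0 kb from 6816806 to 6881830, spans Scr and ftz, a pair-rule segmentation gene within the complex. In the bithorax complex the longest between neighbouring optimal summits, 44.4 kb from 16704412 to 16748787, spans the start of Ubx. The stretch from the end of Ubx at 16656623 to its summit at 16703047 held none either and was slightly longer. The 29.2 kb between lab and pb, where the Ccp84A cuticle protein genes lie, held no pooled summit, and 3, 2 and 0 regions in replicates 1, 2 and 4.

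Between the listed genes, the strongest region of the bithorax complex lay at 16798880, between Ubx and abd-A and 1720 bp upstream of lncRNA:CR45750. It had a signal of 693 and ranks of 508, 656 and 802 in replicates 1, 2 and 4. Its window, printed above, has a GC content of 56.4% and holds GAGAG and CAGGTAG. Of the other 4 optimal summits in this interval, those at 16748787 and 16771738 lay in introns of lncRNA:bxd, a noncoding transcript from the regulatory DNA of Ubx, with signals of 153.1 and 221.7. One at 16801248 lay 51 bp upstream of lncRNA:TS16, and one at 16794421 was intergenic.

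The 97.2 kb between abd-A and Abd-B held 5 optimal summits, all in introns of lncRNA:iab8, a long transcript that crosses the infra-abdominal regulatory DNA. Their signals were modest, from 154.6 to 279.7. The highest, at 16869397, ranked 2635, 3474 and 2704 in replicates 1, 2 and 4 and was the one of the 5 in every restricted list. The lowest, at 16882812, ranked 5849, 15690 and 5342, the widest spread of percentiles between libraries among the Hox regions with a partner in all 3. The summits at 16869397 and 16919263 are those whose printed windows hold AGGNGGC. That core is read by CTCF, a protein known to sit at boundaries between regulatory domains of this complex.

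In the Antennapedia complex, the strongest region between listed genes belonged by position to a neighbour that is no Hox gene. Between pb and Dfd, a summit at 6763136 lay 268 bp upstream of one transcript start of Ama, inside both the annotated extent of Ama, which encodes a secreted protein of the immunoglobulin superfamily, and lncRNA:CR45593. It had a signal of 858 and ranks of 742, 520 and 276 in replicates 1, 2 and 4. A summit at 6759635 lay 169 bp upstream of bcd, the maternal determinant of the anterior body and a homeobox gene derived from a Hox gene, with a signal of 349.1 and ranks of 1246, 4480 and 2318. The other homeobox genes of the complex that lost Hox function, zen, zen2 and ftz, had no optimal summit at a start or inside. The start of zen had a pooled region at rank 28708. Of the 18 other protein-coding genes inside the complexes, bcd and Ama were the 2 with an optimal summit at a start, beside 26.2% of all protein-coding genes. Over all 54 other genes 5 had one, where Ama and lncRNA:CR45593 share the same region. Most of the 54 are noncoding, so the share of protein-coding genes does not apply to them, and no share over noncoding genes was taken. These counts carry no test. Between Scr and Antp, a summit at 6881830 in an intron of lncRNA:CR44931 had a signal of 383.9 and ranks of 1627, 2274 and 1626.

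Counting the starts of all genes, the Hox complexes had a smaller share of their summits at starts than the arms. Of the 32 optimal summits, 6 (18.8%) lay within 500 bp of a start of any gene, those of Dfd, Antp, bcd, Ama with lncRNA:CR45593, lncRNA:CR42651 and lncRNA:TS16. Over all optimal regions the share was 53.5%. In the restricted lists of replicates 1, 2 and 4 the Hox shares were 15.6, 20.7 and 18.2% (18.2% ± 2.53, SD, n = 3), and the shares over the arms were 50.9, 52.9 and 57.2%. Hox DNA was lower in 3 of 3 replicates, by more than the spread between them. That spread is between libraries at the same loci, and how far other stretches of this size vary was not tested. An exact two-sided sign-flip permutation test gave p = 0.25, the smallest that 3 replicates allow, so no such test here can pass 0.05. The share of bases within 500 bp of a start was 10.9% in the Hox complexes and 13.6% over the arms.

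Set against the bases of each kind, the Hox complexes had fewer summits at starts and more in introns of any gene than the arms. Within 500 bp of any start, the density of optimal summits was 8.44 per 100 kb in the complexes and 17.3 over the arms. In introns it was 5.35 and 3.42 per 100 kb. The 21 Hox summits of this class are not all in Hox introns. They include summits between the listed genes, in introns of lncRNA:CR44931, lncRNA:bxd and lncRNA:iab8. The restricted lists of replicates 1, 2 and 4 gave intron densities of 6.11, 4.58 and 5.85 per 100 kb in Hox DNA and 3.62, 3.51 and 3.15 over the arms, higher in 3 of 3 replicates (exact two-sided sign-flip permutation p = 0.25). In intergenic DNA the densities of 2.54 and 2.07 per 100 kb rest on 3 Hox summits, and the restricted lists spread by 0.846 around 2.54, so no difference was detectable. In exons of any gene the densities were 2.81 and 0.609 per 100 kb. The Hox value there rests on 2 summits, and each restricted list held 1. Over all bases the densities were 4.90 and 4.38 per 100 kb, and the restricted lists gave 4.80 ± 0.319 in Hox DNA (SD, n = 3). Introns of any gene make up 60.1% of the Hox complexes and 39.5% of the arms.

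**Figure D4:**
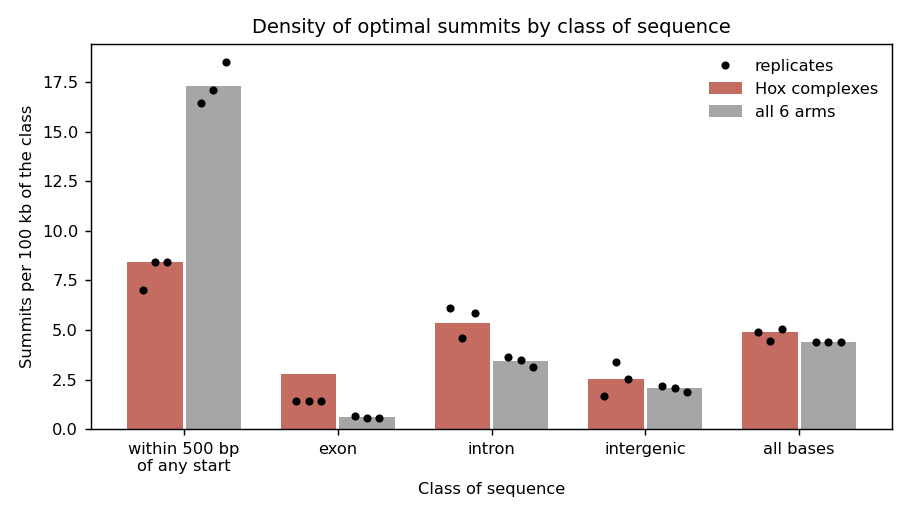
Optimal summits per 100 kb of each class of sequence in the Hox complexes (red bars) and over all 6 arms (grey bars), with the restricted replicate lists as points. At starts of any gene every Hox point lies under every point of the arms, and in introns of any gene every Hox point lies above them.

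The signal of regions at Hox starts did not differ in a steady direction from that of distal ones. Using all regions of each relaxed list, the median percentile of regions at Hox starts was 47.4, 43.6 and 57.8 in replicates 1, 2 and 4, from 11, 13 and 11 regions. For regions in Hox introns or between the listed genes it was 52.7, 48.9 and 50.3. The difference, start minus distal, was −5.33, −5.31 and 7.50 points, with a mean of −1.05 ± 7.40 (SD, n = 3; exact two-sided sign-flip permutation p = 1). Its sign was not the same in the 3 libraries, and without replicate 4 the mean was −5.32.

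For a comparison with the arms, both sides were classed by the starts of any gene, with introns and intergenic DNA as the distal class. In the Hox complexes the start minus distal difference was then −2.27, −12.4 and 12.6 points in replicates 1, 2 and 4, and over the arms it was 21.9, 24.5 and 19.4. Hox DNA was lower in 3 of 3 replicates, with a mean of Hox minus arms of −22.6 ± 15.1 points (SD, n = 3; exact two-sided sign-flip permutation p = 0.25). The median percentile of the start regions alone was 52.2, 39.8 and 63.4 in the complexes, from 34, 30 and 28 regions, and 68.8, 70.8 and 65.2 over the arms. Hox minus arms was −16.4 ± 14.6 points, lower in 3 of 3 (p = 0.25 by the same exact test), with −31.0 points in replicate 2 and −1.72 in replicate 4. Without replicate 2 the mean was −9.14 points. With Benjamini-Hochberg adjustment over the 5 sign-flip tests, the p of 0.25 became 0.312. The 4 comparisons with the arms were chosen after the values were seen.

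Around the summits, GAGAG was the most frequent of the 8 words in Hox windows. It was in 8 of the 32 windows of 101 bp (25%), beside 9.28% of all optimal windows. Away from the starts of any gene it was in 8 of 26 Hox windows (30.8%) and in 10.2% of the 2725 optimal windows over the arms. Among regions in the Hox complexes that were pooled and not optimal it was in 13.5% of 156, and in 12.6% of 24138 such regions over the arms. The 8 lie in Antp (3), Ubx, abd-A, Abd-B and both intervals of the bithorax complex, and they include the strongest Abd-B region and the strongest region between Ubx and abd-A. The window in Ubx at 16703047 holds 2 overlapping copies and each of the others 1. GCCAT was in 5 windows (15.6%), beside 14.1% of all optimal windows and 24.4% of Hox windows below the optimal list. Over all 32 windows the share of GCCAT was thus close to that of optimal windows in general. Away from the starts of any gene GCCAT was in 2 of 26 Hox windows (7.69%) and in 13.7% of optimal windows over the arms.

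Other words were in few Hox windows. AGGNGGC was in 3 (9.38%, against 2.44% of all optimal windows) and CAGGTAG in 2 (6.25%, against 0.427%), the latter in lab at 6672555 and between Ubx and abd-A at 16798880. Zelda, which reads CAGGTAG, opens early embryonic enhancers. TAATTA was in 3 windows (9.38%, against 10.4%), all of them at Dfd and Antp. CGATA was in 2 (6.25%, against 17.1%), and neither TATCGATA, which contains it and is bound by Dref, nor TGCGGATG, with no factor assigned here, was in any. Over all optimal windows those last words were in 2.34% and 1.81%. Most Hox windows, 26 of the 32, lie away from the starts of any gene, unlike optimal windows in general. Away from starts, CGATA was in 1 of the 26 (3.85%) and in 10.4% of optimal windows over the arms. For TAATTA these values were 1 of the 26 and 10.1%, for AGGNGGC 2 of the 26 and 2.46%, and for CAGGTAG 2 of the 26 and 0.551%. Among pooled regions below the optimal list, AGGNGGC was in 1.28% of Hox windows and in 4.76% over the arms. For CAGGTAG those shares were 0.641% and 0.534%. TATCGATA and TGCGGATG were in 0.257% and 2.68% of the optimal windows away from starts over the arms. None of the 8 words was in 14 Hox windows (43.8%), beside 54.6% of all optimal windows. These matches are descriptions of letters near a summit, and such counts of 2 or 3 windows carry no test.

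**Figure D5:**
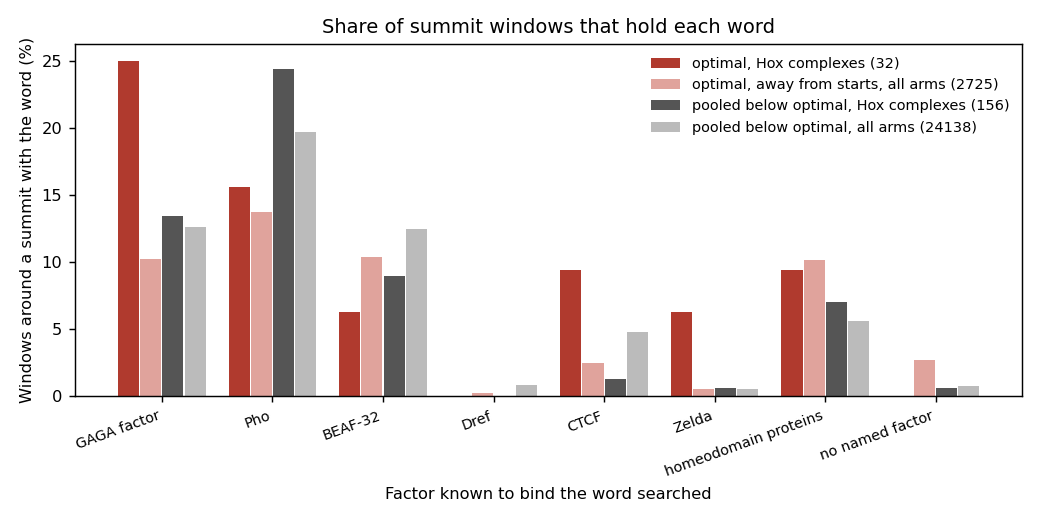
Percentage of windows of 101 bp around the summit that hold each of 8 words, labelled by the factor known to bind it, for optimal regions in the Hox complexes, optimal regions away from starts over all arms, and pooled regions below the optimal list in the complexes and over the arms. Numbers in the key are windows, and the red bar for GAGA factor reaches 25%.

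Genes that work with the Hox proteins or under them were listed from textbook knowledge to set beside the 8. Of 11 cofactors and regulators, 5 had an optimal summit at a start, 4 one inside, and 7 either. The cofactor genes exd and hth, whose homeodomain proteins bind DNA together with Hox proteins, had none at a start, while hth, 132 kb long, held 10 inside with a highest signal of 384.2. Trl, which encodes GAGA factor, had a start signal of 617.3 and an inside signal of 3240.6, at pooled rank 10. The start of disco, a zinc finger gene that works with Dfd and Scr in the head, had a signal of 980.3 and ranks of 267, 467 and 278 in replicates 1, 2 and 4. The inside region of Trl and the start region of disco had higher signals than every region of the Hox complexes. The starts of psq, whose product binds GAGA sequences, of CTCF and of hb, an early repressor of Hox genes, had signals of 310.1, 222.3 and 176.6.

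Of 11 well-known Hox targets, 4 had an optimal summit at a start, 3 one inside, and 6 either. The 4 were hid, a cell death gene, fkh and CrebA, salivary gland genes under Scr, and Dll, a limb gene repressed by Ubx and abd-A. Their start signals were 599.2, 544.1, 546.7 and 362.4, each above the signals of 236.5 and 185.8 at the starts of Dfd and Antp. The 3 with an inside summit were CrebA, dpp and ct, at signals of 418.9, 233.7 and 232.8. The shares at starts, 5 of 11 and 4 of 11, stand beside 26.2% of all protein-coding genes. The inside counts, 4 of 11 and 3 of 11, stand beside 39.3% of protein-coding genes at least 10 kb long. Both lists also hold shorter genes, so that share is only a rough guide, and the counts of either have no share beside them. These short lists were chosen by hand and carry no test.

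Outside the complexes, the nearest optimal summit on each side lay near a start of a gene that is no Hox gene. Such summits also lay inside the complexes, as at bcd and Ama. On the lab side the nearest lay at 6657718, 164 bp from the start of twr and 3709 bp beyond the end of lab, with a signal of 361. Beyond Ubx the nearest lay 9405 bp away near the start of CG10324, with a signal of 499.9, and beyond Abd-B 14464 bp away near the start of CG18622, with a signal of 534.2. Beyond the distal start of Antp the nearest was 38180 bp away, near lncRNA:CR44933, with a signal of 167.2. Signals at twr, CG10324 and CG18622 exceed those at the starts of Dfd and Antp in the same list. All are below the signal of 858 at the start of Ama, inside the Antennapedia complex.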

How the data were processed

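The data are lists of regions called from anti-GFP ChIP-seq of CG13775-GFP embryos. Per the submitters' file records, the authors deposited relaxed lists for each of the 3 replicates and for the pooled libraries, and an optimal list after IDR, on dm6. The deposited signal is the authors' own value per region. The aligner, peak caller, its version, the scale of the signal and the kind of control are not given in the sources used here, so values were compared within a list only. The dm3 lists were not used here. No reads were counted, and precision is set by the 3 replicates.

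Summits (1-based) were assigned with the Ensembl release 115 annotation of BDGP6.54, without transposable elements, using Python 3.11.15, numpy 2.4.6 and matplotlib 3.10.9. The assignment was tested on simulated data with planted positions. In comparisons with the arms, both sides are classed by all genes, with starts first, then exons and introns. The optimal list holds the 5862 regions of highest signal in the pooled list. Restricted lists took the same number per replicate. Regions were shared at an overlap of 1 bp. Percentiles were compared over the 3 replicates by an exact two-sided sign-flip test.

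All 8 genes and all 32 optimal regions are described. Other genes were named from lists of complex members, cofactors and targets, and 8 words were sought on both strands. The members and lists were chosen with earlier results of these data known. Flanking genes were named after their values were seen. Alternatives covered the distance to a start, the list, the support and single replicates.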

Additional observations from a re-analysis of the deposited data

How the results depend on the processing

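The count of Hox genes with an optimal summit at a start, 2 within 500 bp, was 0 within 250 bp and 3 within 1000 bp. It was 0 among optimal regions above that list's median signal, 1 in the restricted list of replicate 1, and 1.5 to 2 in the mean of the restricted lists with each replicate left out in turn. The count of optimal summits, 32, fell to 14 above the median signal, to 17 in the listed genes alone, and to 20 with support in every replicate at either overlap, and rose to 188 in the whole pooled list, by the construction of each. The density of 4.90 summits per 100 kb kept within 1.5 times in all 6 alternatives, from 4.44 to 5.05. The start minus distal percentile of −1.05 changed sign within 1000 bp (0.367) and against introns only (4.53), and ran from −5.32 to 1.10 with each replicate left out in turn. It was negative in every replicate, and more so in the mean, within 250 bp (−9.32 ± 2.83, SD, n = 3), in the restricted lists (−2.26 ± 1.03) and against DNA between listed genes only (−6.90 ± 5.26), each with an exact sign-flip permutation p of 0.25. In the restricted lists the class at Hox starts held only 1, 2 and 2 regions in replicates 1, 2 and 4, so its medians rest on very few. The cause of the negative values was not tested. None of the 9 alternatives for the start minus distal percentile passed 0.05, which 3 replicates cannot reach. No paired analysis was possible because the samples form 1 group, so no other group shares their replicate numbers. Hox and arm values were set against each other within each replicate. Without read counts, the depth behind weak regions is unknown, and the relaxed lists hold background on purpose, so a region missing from a list shows only that it was not called there.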
